A study of Homo sapiens with 4 samples.

Results

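H2AFY, which current annotation names MACROH2A1, encodes the histone variant macroH2A1. The gene (ENSG00000113648.17_12 in the annotation) occupies chr5:134670071-134735604 of hg19 and is read from the minus strand. Every splicing event that the deposited tables assign to H2AFY was taken, 21 of 121269 events in all. These comprised 15 skipped exon (SE) events, 4 events of mutually exclusive exons (MXE) and 2 alternative 3′ splice sites (A3SS), with 0 H2AFY events among the alternative 5′ splice sites and the retained introns. The gene was chosen from the difference between RBFOXi and SCRM in these same libraries, so its values are given as a description and carry no p-value. RNA-seq had been performed on U87MG cells, a line of glioblastoma origin, which the labels describe as likely glioblastoma. RBFOXi and SCRM were each given at 2.5 µM with lipofectamine 2000, with 2 libraries per oligonucleotide and 4 in all. RBFOXi is an RNA decoy that carries repeats of the motif bound by RBFOX1 and RBFOX2, and SCRM is the control oligonucleotide. The label of RBFOXi replicate 1 names an RBFOXi oligonucleotide with the dye Cy5, and the labels of the other libraries name no dye. The replicates were independent biological samples of a single cell line. The event tables hold no gene expression levels, so the identity of the line was not checked against marker genes here. SCRM replicate 1 stood apart from the other libraries in how its reads were spread along H2AFY, and the result for the alternative exons is therefore also given without it.

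MacroH2A1 carries a histone H2A-like part followed by a large globular macrodomain. A pair of neighbouring coding exons contributes alternative stretches of that macrodomain, and a transcript normally carries one or the other. The form known as macroH2A1.1 has a macrodomain that binds ADP-ribose, whereas the exon of macroH2A1.2 changes the binding pocket so that this ligand is not bound. MacroH2A1.1 is known as the form of slowly dividing and differentiated cells and is often reduced in tumours. RBFOX proteins bind the RNA hexamer UGCAUG, and binding in the intron after an exon commonly favours inclusion of that exon.

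The exon that comes first in the transcript, used in macroH2A1.2, is 100 nt long (chr5:134688636-134688735), and the exon that follows, used in macroH2A1.1, is 91 nt long (chr5:134686513-134686603). Both are coding exons. In the annotation the first occurs in 4 and the second in 2 of the 22 transcripts of the gene, and 0 transcripts hold both. The lengths differ by 9 nt, or 3 codons, and each leaves 1 base after division by 3, so the reading frame after either exon is the same. Their sum, 191 nt, leaves 2. Only 48 bases matched when the exons were aligned end to end, 52.7% of the shorter exon. The exons are shown with 20 nt of intron on each side, 5′ to 3′ on the minus strand of GRCh37 (hg19), because the comparison turns on which of them was joined into the transcript. Capitals mark the exon.
100 nt exon, chr5:134688616-134688755: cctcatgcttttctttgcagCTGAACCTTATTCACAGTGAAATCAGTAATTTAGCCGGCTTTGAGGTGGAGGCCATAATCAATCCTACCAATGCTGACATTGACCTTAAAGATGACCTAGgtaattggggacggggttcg
91 nt exon, chr5:134686493-134686623: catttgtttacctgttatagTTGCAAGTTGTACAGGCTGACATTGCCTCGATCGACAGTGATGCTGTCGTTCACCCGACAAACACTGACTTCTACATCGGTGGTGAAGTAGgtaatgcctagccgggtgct

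The RBFOX hexamer, TGCATG in DNA letters, occurred 35 nt into the intron that follows the 91 nt exon, and no copy followed in the intron after the 100 nt exon. The first 100 nt of both introns are shown for this difference, read on the minus strand, with the hexamer in capitals.
After the 100 nt exon, chr5:134688536-134688635: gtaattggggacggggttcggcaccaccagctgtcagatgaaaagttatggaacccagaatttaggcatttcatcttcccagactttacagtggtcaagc
After the 91 nt exon, chr5:134686413-134686512: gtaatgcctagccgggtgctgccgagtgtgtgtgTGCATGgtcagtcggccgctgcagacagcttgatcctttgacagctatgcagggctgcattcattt

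Searched whole, the intron of 2032 nt between the exons held 0 copies of TGCATG on either strand. The intron of 7451 nt before the 100 nt exon held 4 copies on the strand of the gene, the nearest ending 3694 nt before that exon, and 4 on the other strand, where the letters read CATGCA. The intron of 4765 nt after the 91 nt exon held 2 on the strand of the gene, at 35 and 3203 nt from its start, and 3 on the other. TGCATG in the first 300 nt of the intron is not rare, since 2396 of 26717 exons of tested SE events (8.97%) had it there, and 25.7% had the shorter GCATG that it contains. The whole introns held 9, 0 and 6 copies of GCATG on the strand of the gene, in transcript order. For ACTAAC and ACTAAT, forms of the motif of the splicing factor QKI, the same strand held 2, 0 and 0 and then 4, 0 and 1 copies, and none lay within 300 nt before or after the 100 or the 91 nt exon. Among the exons of tested SE events, 3.32% had ACTAAC and 5.84% had ACTAAT in the first 300 nt after them, and 3.48% and 6.39% had them in the last 300 nt before. These matches are letters in the genome, and no binding was measured.

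**Figure D1:**
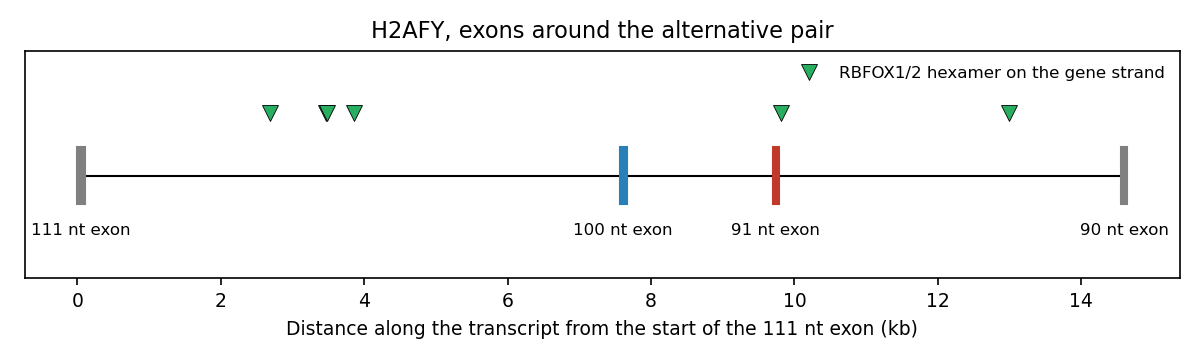
Map of the H2AFY exons around the alternative pair, to scale, with distance along the transcript in kb from the start of the 111 nt exon. Grey boxes are the flanking exons, blue is the 100 nt exon, red is the 91 nt exon, and triangles mark TGCATG on the strand of the gene (2 of those in the first intron overlap). A triangle sits 35 nt into the intron after the 91 nt exon, and the intron between the pair has none.

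In U87MG cells with RBFOXi the 91 nt exon of macroH2A1.1 made up a smaller share of the exon pair than with SCRM, by a factor of 1.93. The share of the 100 nt exon of macroH2A1.2 was larger. The pair forms 1 MXE event, between the 111 nt exon (chr5:134696187-134696297) and the 90 nt exon (chr5:134681658-134681747). Reads that fit the form with the 91 nt exon numbered 733 and 559 in the RBFOXi libraries (replicates 1 and 2) and 972 and 1404 in the SCRM libraries. Reads that fit the form with the 100 nt exon numbered 3838 and 3997 with RBFOXi and 3065 and 3181 with SCRM. The form with the 91 nt exon was thus lower, and the form with the 100 nt exon higher, in both RBFOXi libraries than in either SCRM library. The proportion spliced in (PSI) is the share of 1 form after each count is divided by the effective length of its form, 169 nt for the 100 nt exon and 165 nt for the 91 nt exon. By that measure the share of the 91 nt exon was 0.164 and 0.125 with RBFOXi and 0.245 and 0.311 with SCRM. The Wilson 95% intervals, from 0.153 to 0.175, 0.116 to 0.135, 0.232 to 0.259 and 0.298 to 0.325 in the same order, did not overlap between any of the libraries, and they cover counting error only. The RBFOXi mean was 0.144 ± 0.0271 and the SCRM mean 0.278 ± 0.0468 (SD, n = 2 each), a difference of -0.134. The difference was larger than the SD of either group. In RNA from a whole culture, a lower share in every cell and a loss of the exon in some of the cells cannot be told apart.

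The preference for the 100 nt exon can also be read as a ratio. After division by effective length there were 5.11 and 6.98 transcripts with the 100 nt exon for each with the 91 nt exon in the RBFOXi libraries, and 3.08 and 2.21 in the SCRM libraries. The macroH2A1.2 exon was therefore the more frequent in all 4 libraries, and both RBFOXi ratios lay above both SCRM ratios. The replicates of a group differed from each other too, by more than their counting intervals.

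The SE readouts of the same exons, with the same flanking exons, gave a different picture, since an SE event sets an exon against transcripts with neither exon and not against its neighbour. PSI of the 91 nt exon in its SE event was 0.961 and 0.937 with RBFOXi and 0.99 and 0.992 with SCRM. This made a mean of 0.949 ± 0.0171 against 0.991 ± 0.0012 (SD, n = 2 each), a difference of -0.0419. PSI of the 100 nt exon was 0.992 and 0.99 with RBFOXi and 0.997 and 0.996 with SCRM, with means of 0.991 ± 0.0012 and 0.996 ± 0.000364 (SD, n = 2 each) and a difference of -0.00517. Read from the SE events alone, each exon appeared in nearly every transcript and both were a little lower with RBFOXi. An exon present in 12.4% to 31.1% of the forms thus had a PSI of at least 0.937 in its SE event in every library.

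**Figure D2:**
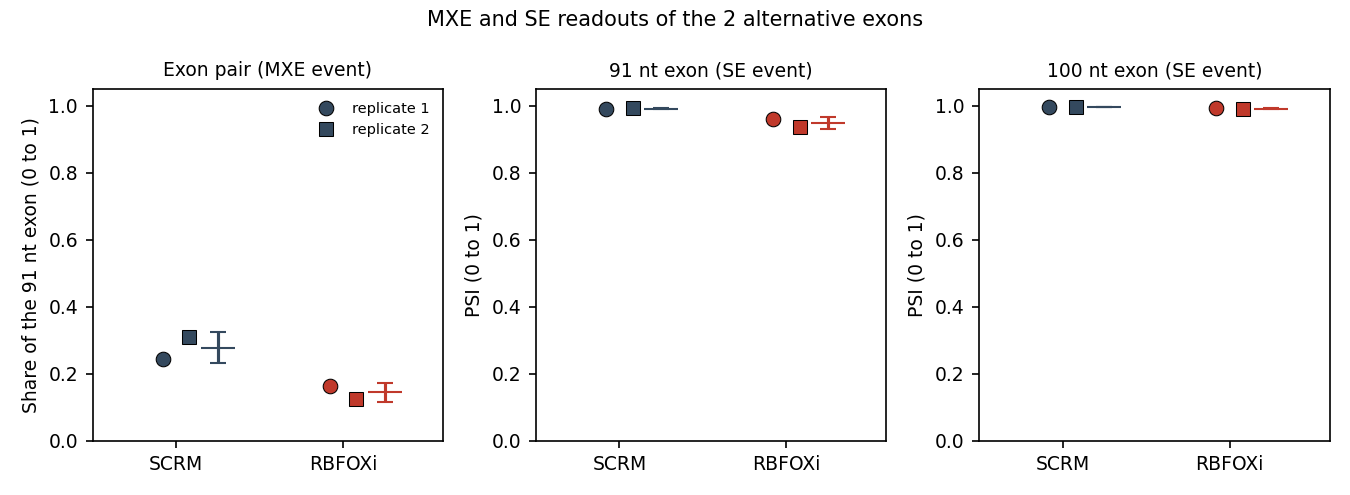
Readouts of the alternative pair in each library, with the share of the 91 nt exon in the MXE event on the left, PSI of the 91 nt exon in its SE event in the middle and PSI of the 100 nt exon in its SE event on the right, all from 0 to 1. Circles are replicate 1, squares are replicate 2, and the bars give the mean and SD of each group. The share of the 91 nt exon runs from 0.125 to 0.311 in the MXE event, whereas no SE readout is under 0.937.

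The inclusion counts of the SE events are the same reads as those of the MXE event, 733, 559, 972 and 1404 for the 91 nt exon and 3838, 3997, 3065 and 3181 for the 100 nt exon. Both SE events also share a single set of skipping counts, from the junction that joins the 111 nt exon to the 90 nt exon. That junction had 15 and 19 reads with RBFOXi and 5 and 6 with SCRM. Both RBFOXi counts lay above both SCRM counts, although the Poisson 95% intervals of both RBFOXi replicates, from 8.4 to 24.7 and from 11.4 to 29.7, overlapped those of both SCRM replicates, from 1.62 to 11.7 and from 2.2 to 13.1. Among the annotated transcripts 2 have this junction.

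With the counts of the 3 forms set on 1 scale, each divided by its effective length, transcripts with neither exon made 0.661% and 0.84% of the total with RBFOXi and 0.25% and 0.264% with SCRM. The mean was 0.75% ± 0.126 against 0.257% ± 0.00969 (SD, n = 2 each), 2.92-fold higher with RBFOXi on at most 19 reads per library. Transcripts with the 91 nt exon made 16.3% and 12.4% with RBFOXi and 24.5% and 31.1% with SCRM, with means of 14.3% ± 2.71 and 27.8% ± 4.66 (SD, n = 2 each). Transcripts with the 100 nt exon made 83.1% and 86.7% against 75.3% and 68.7%, and their mean was 84.9% ± 2.58 against 72% ± 4.67 (SD, n = 2 each). In percentage points of the total, the difference between RBFOXi and SCRM was -13.4 for the form with the 91 nt exon, 12.9 for the form with the 100 nt exon and 0.493 for the form with neither. The lower share of macroH2A1.1 was thus matched almost wholly by the higher share of macroH2A1.2, and little by transcripts without either exon.

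**Figure D3:**
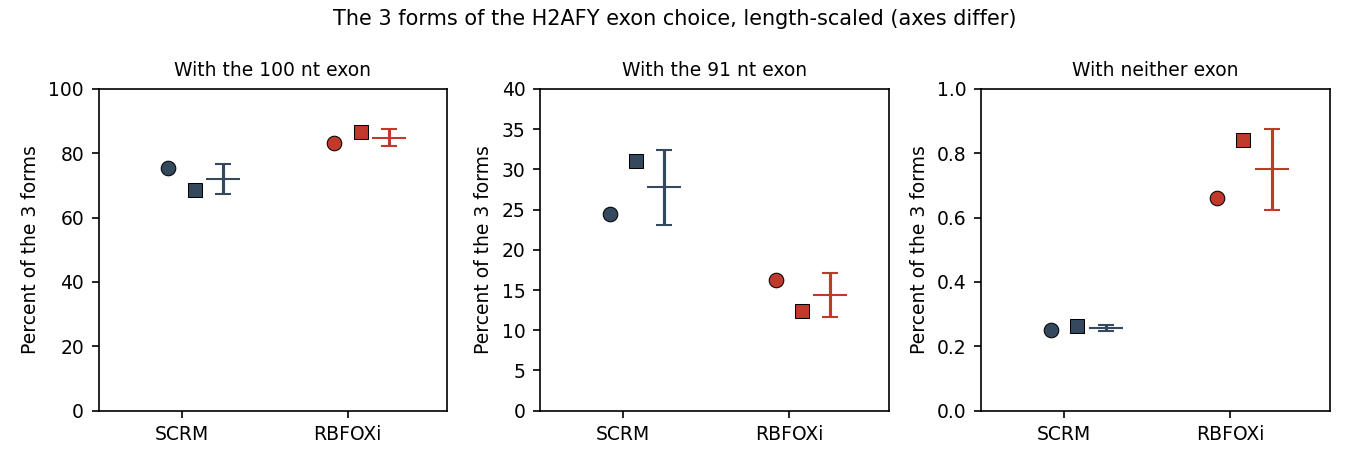
Percent of each of the 3 forms of H2AFY transcripts, with the 100 nt exon, with the 91 nt exon or with neither, from counts divided by effective length. Circles are replicate 1, squares are replicate 2, bars give the mean and SD of each group, and the vertical scales differ between the panels. The form with the 100 nt exon lies between 83.1% and 86.7% with RBFOXi and between 68.7% and 75.3% with SCRM, and the form with neither exon stays under 1% of the total.

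The difference of 0.134 in the MXE event ranked 456 of 26176 tested MXE events by size, and 1.74% of these events had a difference as large or larger, against a median of 0.0192. The gene was chosen from this contrast and the event after its values were seen, so the rank is no measure of significance. A gap between the MXE and the SE readout was not particular to H2AFY. Of the tested MXE events, 11268 also had an SE event with the same flanks for each of the exons. Among these, 303 had a PSI difference of at least 0.1 with groups that did not overlap, and in 197 of the 303 (65%), the H2AFY pair included, both SE differences were under 0.1.

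In a limma fit of the log2 odds of inclusion over all events that passed a filter on low counts, 0 of the 4 H2AFY MXE events were called, as were 0 of all 26176 tested MXE events (0%). A call needed an adjusted p-value (Benjamini-Hochberg within the event type) under 0.05 and a PSI difference of at least 0.1. Before adjustment, 1 of the 4 H2AFY events and 395 of all tested (1.51%) had a p-value under 0.05. On counts summed over replicates, Fisher's exact test called 1 of the 4 and 0.76% of all, and a quasi-binomial test called 0 of each. On simulated counts the quasi-binomial test recovered only 8 of 200 changed events, and Fisher's exact test called 624 unchanged ones. Those 200 events were changed by 2 log2 units, and the spread between replicates was set and not fitted. Recovery at the differences and the spread of the real libraries was not tested. The groups did not overlap in 2 of the 4 and in 24.4% of all. Since H2AFY was chosen from this contrast, nothing is read from these shares.

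**Figure D4:**
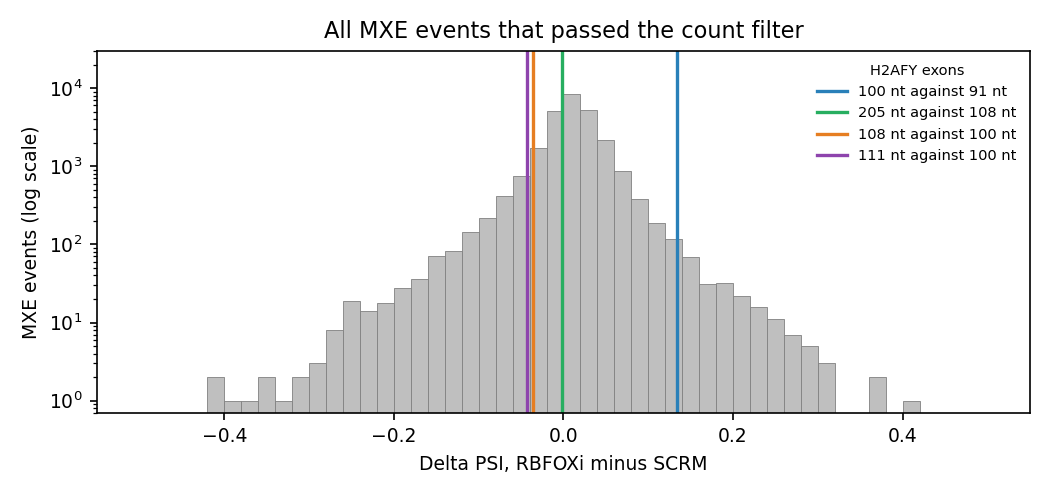
Number of tested MXE events (log scale) by PSI difference, RBFOXi minus SCRM, in bins over all 26176 events. Coloured lines mark the 4 H2AFY events by the lengths of their exons, and PSI is the share of the exon that comes first in the transcript. The pair of 100 and 91 nt lies at 0.134, in the right tail, and the other H2AFY events lie between -0.0432 and -0.0023.

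The other MXE events of H2AFY did not set these exons against each other. By mean count per library the leading one was the event of the 205 nt exon (chr5:134724612-134724816) and the 108 nt exon (chr5:134696187-134696294), and it had been named in the design as the main event, while the event of the 100 and 91 nt exons was singled out after its values were seen. PSI of the 205 nt exon in that event was 0.967 and 0.969 with RBFOXi and 0.965 and 0.975 with SCRM, so the groups overlapped. The difference was -0.0023, with means of 0.968 ± 0.00143 and 0.97 ± 0.0073 (SD, n = 2 each). In their SE events with the most counts, the 205 nt exon and the 108 nt exon had differences of 0.00264 and 0.000396 and PSI of at least 0.992 in every library.

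The remaining MXE events paired the 108 or the 111 nt exon with the 100 nt exon, which are consecutive exons of the gene. PSI of the 108 nt exon was 0.435, 0.426, 0.434 and 0.498 (RBFOXi replicates 1 and 2, then SCRM replicates 1 and 2), a difference of -0.0354 with groups that overlapped. PSI of the 111 nt exon was 0.384, 0.379, 0.397 and 0.452, a difference of -0.0432, and here both RBFOXi values lay under both SCRM values. In their own SE events against the 100 nt exon, however, the 108 and the 111 nt exon each had PSI between 0.994 and 0.996 in every library. These PSI do not give the share of all transcripts with an exon. They show that the junction from the 198 nt exon straight to the 100 nt exon was rare, with 6, 10, 6 and 9 reads. Both MXE events nonetheless list the 100 nt exon and the exon before it as alternatives. Their counts for the 100 nt exon, 1959, 2020, 1542 and 1540, took the 198 nt exon (chr5:134705096-134705293) as the neighbour, and with the 111 nt exon as the neighbour there were 1879, 1977, 1523 and 1641 more.

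The 108 and the 111 nt exon are forms of 1 exon that differ by 3 nt at the 3′ splice site, and 4 and 6 annotated transcripts use them. The bases around the sites are shown on the minus strand for this difference, and capitals mark the 3 nt that the longer form alone includes.
3′ splice sites of the 111 and 108 nt forms, chr5:134696288-134696317: gacccttccgtctgtgcaagAAGaagcagg

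At this A3SS event the longer form had 1175 and 1184 reads with RBFOXi and 993 and 1248 with SCRM, and the shorter form had 1469 and 1454 against 1162 and 1509. PSI of the longer form was 0.444 and 0.449 with RBFOXi and 0.461 and 0.453 with SCRM. The means were 0.447 ± 0.00313 and 0.457 ± 0.00574 (SD, n = 2 each), a difference of -0.0101, and the groups did not overlap. The difference in the choice of site, just before the alternative pair, was thus smaller than that in the choice of exon. It was not called, and 0 of all 3009 tested A3SS events (0%) were, with 100 at an unadjusted p-value under 0.05 and 30.9% with groups that did not overlap. The other A3SS event of H2AFY, with the 205 nt exon as the neighbour, had at most 1 read of a form per library.

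Of the 15 SE events of H2AFY, 8 passed the filter on low counts, which asked for 5 or more counts in each library, 20 or more on average, and 4 or more for each form in total. In limma 0 of the 8 were called, against 27 of all 39615 tested SE events (0.0682%), and 1 of the 8 had an unadjusted p-value under 0.05, against 3.61% of all. The groups did not overlap in 5 of the 8, and in 30.8% of all. With RBFOXi 2 of the 5 were lower, those of the 91 and the 100 nt exon, and 3 were higher, where 16.5% of all tested SE events were separated with RBFOXi lower and 14.3% with RBFOXi higher. Fisher's exact test and the quasi-binomial test called 0 of the 8, and 0.8% and 0.114% of all.

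The SE events that were higher included both forms of the exon before the pair, read between the 205 nt exon and the 90 nt exon. PSI of the 108 nt form there was 0.714 and 0.723 with RBFOXi and 0.594 and 0.65 with SCRM, with means of 0.719 ± 0.00624 and 0.622 ± 0.0394 (SD, n = 2 each) and a difference of 0.0969. The 111 nt form shares the same skipping counts and had PSI of 0.731, 0.742, 0.627 and 0.676, a difference of 0.0855. Few reads stood behind both. The skipping counts were 21 and 21 with RBFOXi and 25 and 23 with SCRM, and the inclusion counts of the 108 nt form were 112, 117, 78 and 91. Almost none of these inclusion counts joined the 205 nt exon to either form, since the A3SS event at that junction had at most 1 read of a form per library. These PSI therefore do not show how often the exon was included between the 205 and the 90 nt exon. The third event that was higher was that of the 175 nt exon (chr5:134678950-134679124), with a difference of 0.00313.

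The remaining 7 SE events did not pass the filter. At 6 of them, on the 100, 108, 111 and 205 nt exons, there were at most 3 skipping counts over all 4 libraries and PSI was at least 0.973. The other, on the 90 nt exon that follows the pair, had 8 to 19 counts per library and PSI from 0.645 to 1.

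Counts on the exons of H2AFY were scaled to 1000000 SE counts of the library to ask how the level of each exon varied. On that scale the level of the 91 nt exon was 5.87 and 4.11 with RBFOXi and 8.5 and 10.4 with SCRM, with means of 4.99 ± 1.25 and 9.44 ± 1.33 (SD, n = 2 each). The level of the 100 nt exon was 30.8 and 29.4 with RBFOXi and 26.8 and 23.5 with SCRM, with means of 30.1 ± 0.982 and 25.2 ± 2.31 (SD, n = 2 each). The 91 nt exon was thus lower and the 100 nt exon higher with RBFOXi also without setting the exons against each other, and in neither did the groups overlap. As a ratio of means, RBFOXi over SCRM, the 91 nt exon stood at 0.529 and the 100 nt exon at 1.2. Outside the pair the ratio was 1.18 at the 205 nt exon, 1.11 at the 108 nt exon and 0.955 at the 175 nt exon. The ratio at the 205 nt exon rested on SCRM replicate 1, at 40.9, since SCRM replicate 2 stood at 56.4 beside 57.2 and 57.9 with RBFOXi. These ratios do not show whether a higher level was particular to the 100 nt exon. The level of the 108 nt exon was 27.7 and 26 with RBFOXi and 24.2 and 24 with SCRM. These counts come from its SE event with the 100 nt exon as the next exon, so they include reads that join the 2 exons. They numbered 3451 and 3539 with RBFOXi and 2764 and 3243 with SCRM. With the 90 nt exon as the next exon there were 1581 and 1571 with RBFOXi and 1240 and 1599 with SCRM.

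Toward the ends of the gene SCRM replicate 1 stood apart. The 205 nt exon near the start had a level of 57.2, 57.9 and 56.4 in RBFOXi replicates 1 and 2 and SCRM replicate 2, but 40.9 in SCRM replicate 1. The 175 nt exon, the last but one, had 47.7, 45.5 and 42.7 in the same libraries and 54.9 in SCRM replicate 1. The ratio of the counts of these exons was 0.744 in SCRM replicate 1 and between 1.2 and 1.32 in the others. The difference in the share of the 91 nt exon was -0.167 without SCRM replicate 1 and -0.101 without SCRM replicate 2. It was -0.153 without RBFOXi replicate 1, the library whose label names Cy5.

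**Figure D5:**
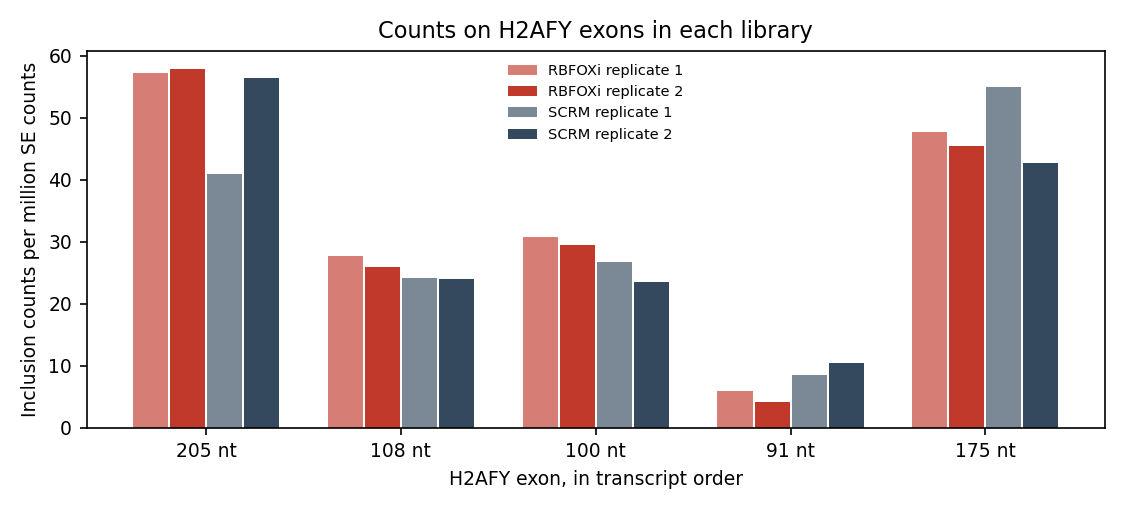
Level of 5 H2AFY exons in each library, as inclusion counts scaled to 1000000 SE counts of that library, with the exons in transcript order. Counts of the 108 nt exon include reads that join it to the 100 nt exon. Light and dark red are RBFOXi replicates 1 and 2, light and dark blue-grey are SCRM replicates 1 and 2. The 91 nt exon is at 4.11 to 5.87 with RBFOXi and 8.5 to 10.4 with SCRM, the 100 nt exon is higher in both RBFOXi libraries, and SCRM replicate 1 is lowest at the 205 nt and highest at the 175 nt exon.

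The gene PITX1-AS1 on the opposite strand, from 134368970 to 134693909, overlaps both alternative exons. The sources used here do not say whether the libraries kept the strand, so reads of the genes cannot be told apart there by strand.

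Genes known as regulators of the H2AFY exon choice, together with the RBFOX family, were examined for changes in their own SE events. The list held QKI and MBNL1, RNA-binding splicing factors, the RNA helicases DDX5 and DDX17, and RBFOX1, RBFOX2 and RBFOX3. Of its 7 genes 5 had SE events that passed the filter, 25 events in all. In limma 0 of the 25 were called, against 0.0682% of all tested SE events, and 7 had an unadjusted p-value under 0.05, against 3.61% of all. In this list and the next, events of 1 gene can share reads, so they are not independent and no enrichment is read from such shares. The groups did not overlap in 11 of the 25, against 30.8% of all, and Fisher's exact test and the quasi-binomial test called 0 of the 25. Their median PSI difference was 0.00122, against -5.65e-05 over all tested SE events. The 6 QKI events had differences from -0.0147 to -0.00429, the 4 RBFOX2 events from -0.0115 to 0.0512 and the 13 MBNL1 events from -0.0511 to 0.0988, while DDX5 and DDX17 had 1 event each, at 0.00392 and -0.00324. The largest difference was at the 95 nt exon of MBNL1 (chr3:152174056-152174150), with PSI of 0.964 and 0.981 with RBFOXi and 0.826 and 0.92 with SCRM on 43 to 1030 counts per library. Both RBFOXi values lay above both SCRM values, but limma gave an adjusted p-value of 1.

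A list of 18 genes of macrodomain proteins, poly(ADP-ribose) enzymes and other histone variants had 41 SE events that passed the filter, in 8 genes. In limma 0 of the 41 were called and 0 had an unadjusted p-value under 0.05, against 0.0682% and 3.61% of all tested SE events. The groups did not overlap in 15 of the 41, against 30.8% of all, and the other tests called 0 as well. Their median PSI difference was -2.51e-05. The largest difference was at the 71 nt exon of PARP2, a poly(ADP-ribose) polymerase (chr14:20813553-20813623), with PSI of 0.785 and 0.908 with RBFOXi and 1 and 0.915 with SCRM. It rested on 30 to 89 counts per library and had an adjusted p-value of 1 in limma.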

How the data were processed

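RNA-seq libraries of U87MG cells, 2 with RBFOXi and 2 with SCRM, had been aligned by the authors with STAR 2.4.2a to hg19, keeping unique alignments, and counted per splicing event with rMATS. From the deposited tables, the inclusion and skipping counts of each event and library, which are not normalized, and each form's effective length were used. The deposited p-values, FDR and inclusion differences of the authors' own comparison, and their inclusion levels, were not used. Reads that fit several events are counted in each, and counts over SE events came to between 114415530 and 136097319 per library.

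PSI was computed from counts divided by effective length. For MXE events the form with the exon that comes first in the transcript was taken as inclusion, which was checked on the counts of SE events with the same flanks (equal in 6386 of 6386 events on the plus and 5701 of 5702 on the minus strand). limma 3.58.1 (R 4.3.3) was applied to log2 odds of inclusion after adding 0.5 as a pseudocount, with condition as the only term and the variance modelled as a trend on each event's information. The test is two-sided. The events and gene lists were chosen with earlier results of these data known. All H2AFY events were named, and for each list the called events or, with none called, the one with the largest PSI difference, and the 5 genes with an MXE event nearest to that of H2AFY. Alternatives covered the test, the pseudocount, the filter on low counts, the replicate number as a block, the PSI minimum, the definition of PSI, a median over events and each library left out. Exons, transcripts and sequences came from GRCh37 (hg19) and GENCODE 44 lifted to it. Tests were also tried on simulated data. There 200 of 26176 MXE events were changed by 2 log2 units, and the spread between replicates was set and not fitted. limma recovered 165 of the 200, Fisher's exact test 169 and the quasi-binomial test 8. Unchanged events called numbered 6, 624 and 0 in the same order. Scripts ran in Python 3.11.15 with pandas 2.3.3, numpy 2.4.6, matplotlib 3.10.9 and scipy 1.17.1.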

Additional observations from a re-analysis of the deposited data

How the results depend on the processing

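The share of the 91 nt exon in the H2AFY pair was lower with RBFOXi under each setting that could change it. The difference was -0.132 as a plain share of counts and -0.167 to -0.101 with each library left out. Same-numbered libraries correlated at 0.0881 (MXE) and 0.0944 (SE) in their deviations from the group means. Their titles also end alike across the groups, but no source used here says what the endings mean, so the numbers were not taken as pairs. Entering replicate numbers as a block could not change the difference of -0.134, because the block enters the fit and not the difference of the group means. The difference of the event of the 205 and 108 nt exons ran from -0.00746 to 0.00286 with a library left out and was positive only without SCRM replicate 2. The SE differences of these exons also took the other sign, at -0.000275 for the 205 nt exon without SCRM replicate 1, and at -0.00073 and -0.00023 for the 108 nt exon without RBFOXi replicate 1 and without SCRM replicate 2. As plain shares the SE differences were -0.0218 for the 91 nt and -0.00256 for the 100 nt exon. The median over SE events at the 108 nt exon was 0.0486, in place of 0.000396. Of the H2AFY MXE events 1 was called by Fisher's exact test, 1 with the block, and 0 to 1 with a library left out (1 without SCRM replicate 1 and 1 without SCRM replicate 2). Over all MXE events the count rose from 0 to 199 with Fisher's exact test, 77 with the block and 2 with a pseudocount of 1, and ran from 4 to 1431 with a library left out, with 1431 without SCRM replicate 2. Over all SE events it went from 27 to 317 with Fisher's exact test, 119 with the block, 45 with the quasi-binomial test, which was added after seeing the data, 1 with a pseudocount of 0.1 and 44 with at least 1 count as the only filter, and it ran from 3 without SCRM replicate 1 to 63 without RBFOXi replicate 1, with 6 without SCRM replicate 2. Calls on the regulator events also varied with the library left out. Such a fit leaves 1 library in a group, so nothing is read from those calls. The cause of these changes in calls was not tested. The count-model test planned as an alternative was not run, because the deposited cells hold the replicates joined by a comma and were not accepted as count columns. With 2 libraries per group and at most 19 reads for transcripts with neither exon, the spread of that form is poorly known.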

Other observations

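The genes whose tested MXE events lay nearest to those of H2AFY were listed by the root mean square difference of PSI over the 4 libraries, 1 event per gene. For the event of the 205 and 108 nt exons these were PRMT1 (0.00252), an arginine methyltransferase, IRAK1 (0.00253), a kinase of interleukin-1 receptor signalling, CLIC1 (0.00281), IMMT (0.00308) and YIF1A (0.00312). For the pair of 100 and 91 nt exons, added after the values were seen, they were ADCY8 (0.0325), an adenylyl cyclase, SPAG4 (0.0395), PIFO (0.0405), ZNF407 (0.0419) and CTTN (0.0459), which encodes the actin-binding protein cortactin. The PSI differences of these events, RBFOXi minus SCRM, were 0.0937, 0.0944, 0.102, 0.0663 and 0.131 in the same order, beside 0.134 in H2AFY. Nearness was measured over these same libraries, so similar differences follow from how the genes were picked. The CTTN event, of 2 exons of 111 nt each, had PSI of 0.828 and 0.859 with RBFOXi and 0.683 and 0.743 with SCRM, and it rested on at least 5538 counts per library.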
